A study of Mus musculus with 24 samples.

Results

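Primary cultured osteoblasts (OBs) of mouse pups heterozygous for the G610C substitution (Het) were compared with OBs of wild type (WT) pups at day 8 after seeding, the earliest of 3 sampling days. All libraries labelled day 8 were taken, so 4 WT and 4 Het libraries, numbered as replicates 1 to 4 in each genotype, were used of the 24 in the series, and 16 libraries of days 14 and 21 served only to test whether the Het effect at day 8 differed from the later one. G610C (strain B6.129(FVB)-Col1a2tm1Mcbr/J, kept on C57BL/6J) replaces a glycine by a cysteine in the triple helical region of the proα2(I) chain of type I procollagen and is a mouse model of osteogenesis imperfecta, and Het pups carry it on 1 of their 2 alleles of *Col1a2*. The cells of both groups came from parietal bones of pups 4 to 5 days old, pooled from several pups of one genotype, and both were grown under the same treatment, osteogenic differentiation in a medium with ascorbic acid 2-phosphate. The methods describe a pair of experiments with different litters, with 1 well for each genotype and day in the first and 2 in the second, 3 in all, while the labels list 4 replicates and do not say which came from which. How many separate pools of cells stand behind the 4 replicates is therefore not known, and p-values measure the spread between these libraries, which may be partly technical. The mutation is a single base change, which counts of reads per gene do not show, so the genotype labels could not be checked from these values.

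Values are given as RQ, the count of a gene in percent of the geometric mean count that the library showed for 4 housekeeping genes, *Sdha*, *Mrfap1*, *Actb* and *Actg1*, and RQ was compared between libraries and never between genes of different length. The WT libraries held 21193927 to 50317720 counts and the Het libraries 25825762 to 50829572, with the fewest in replicate 1 of each genotype. Replicate 1 stood apart. Its root mean square log2 difference from the other replicates of its genotype was 0.659 to 0.885 over genes, against 0.29 to 0.4 among replicates 2 to 4, and the difference between Het and WT of the same number was 0.358 in replicate 1 and 0.39 to 0.575 in the others. The experiments of the methods also differed in seeding density and oxygen, and values are given also within replicate 1 and within replicates 2 to 4. The housekeeping mean itself was 550.3 to 576 CPM (counts scaled to the library total) in WT and 544 in Het replicate 1, but 609 to 629 in Het replicates 2 to 4. Sex-linked transcripts also moved with genotype. *Xist* RQ was 35.2, 50.5, 38.4 and 39.4% in WT and 53.6, 60.9, 52.5 and 51.2% in Het, and *Kdm5d*, on chromosome Y, 5.05, 4.98, 4.73 and 4.89% and 4.43, 2.41, 2.06 and 2.85%, so that the mix of female and male cells cannot be told apart from genotype, and its part in the results was not tested. Markers that define OBs were present in every library, with *Runx2* at 9.59 to 18.4% and *Sp7* at 13.6 to 31.5% of the housekeeping mean.

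Type I collagen is made by OBs as procollagen, a triple helix of proα1(I) and proα2(I) chains that folds in the ER with the help of chaperones and modifying enzymes. Maturing OBs pass from proliferation through alkaline phosphatase and matrix production to mineralization, under the control of *Runx2*, *Sp7* and of Wnt, BMP, IGF and hedgehog signals, and the most mature cells switch on genes of mineralization and of the osteocyte. Cultures from calvarial bone can also hold macrophages, which derive from blood, and cartilage cells.

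With all 8 libraries pooled by genotype and no term for the replicate, edgeR's quasi-likelihood test called 0 of 18222 tested genes (0.0%) at an adjusted p under 0.05, although 1817 had an unadjusted p under 0.05 and DESeq2's Wald test called 431. When libraries of the same replicate number were treated as pairs (the replicate block), 285 genes (1.56%) were called, 106 higher (0.582%) and 179 lower (0.982%) in Het. This count rested on all of replicates 2 to 4, since the block called 0, 1 and 1 genes without replicate 2, 3 or 4 in turn and 5778 without replicate 1. Replicates 2 to 4 taken alone gave 3432 called genes of 18347 (18.7%), 834 higher (4.55%) and 2598 lower (14.2%). The difference between the Het effect in replicate 1 and that in replicates 2 to 4 was tested too and was called for 37 genes (0.203%), 13 with the higher effect in replicate 1 (0.0713%) and 24 with the lower (0.132%). Since replicate 1 has 1 library per genotype, the spread in that test came from replicates 2 to 4 alone. Its p-values, here and below, therefore hold no measure of the spread of the replicate 1 effect. Without any test, all 4 Het libraries lay above all 4 WT libraries for 1.19% of genes and below them for 3.61%, and Het was the higher in all 4 same-numbered pairs for 6.28% and the lower for 19.7%. The split of calls within replicates 2 to 4 depended on the scale. The median gene had a log2 fold change of -0.11 there, and with TMM normalization, which brought this median to 0, 1325 genes were higher and 1156 lower. Log2 fold changes below are therefore to be read relative to -0.11 within replicates 2 to 4 and to -0.08 with the block. A gene is said to have risen or fallen where it was called with the block, or, where so stated, only within replicates 2 to 4. Where only a pair of values stands in parentheses, they are the log2 fold change and its adjusted p, from the fit with the block unless another fit or difference is named. In bulk RNA, fewer cells of a type and less RNA per cell cannot be told apart.

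Interferon-stimulated genes were higher in Het. Cells switch them on when they sense interferon or foreign nucleic acid. Of 26 genes listed, 23 passed the filter on low counts over all 8 libraries, 22 of these had a positive fitted change, 6 rose with the block (0.582% of all genes rose) and 21 rose within replicates 2 to 4 (4.55% of all genes rose). The median log2 fold change of the list was 1.39 with the block and 1.60 within replicates 2 to 4, but 0.05 in replicate 1, against -0.08, -0.11 and 0.01 for all tested genes. All 4 Het libraries lay above all 4 WT libraries for 11 of the 23 genes, against 1.19% of all genes.

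The response element that interferon regulatory factors bind repeats the letters GAAA, and the 250 bases before the start of *Ifit1*, *Ifit3*, *Oas1a* and *Cxcl10* are printed here to show where such letters stand. These 4 were picked as genes that rose and hold a match, and *Cxcl10* is not on the list. The sequences are from RefSeq (GRCm38.p6), 5′ to 3′ on the strand of the gene, and capitals mark matches of GAAA followed after any 2 bases by GAAA, or of the reverse complement, TTTC and TTTC with the same gap, which overlap each other in *Oas1a*. *Ifit1* lies at chr19:34640639-34640888 and *Ifit3* at chr19:34583279-34583528, both on the plus strand, and *Oas1a* at chr5:120907526-120907775 and *Cxcl10* at chr5:92348890-92349139, both on the minus strand.
Ifit1: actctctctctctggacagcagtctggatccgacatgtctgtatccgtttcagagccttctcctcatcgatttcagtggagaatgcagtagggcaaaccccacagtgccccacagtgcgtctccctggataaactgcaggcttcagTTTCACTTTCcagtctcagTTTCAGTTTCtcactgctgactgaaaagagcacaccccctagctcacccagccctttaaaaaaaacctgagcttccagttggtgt
Ifit3: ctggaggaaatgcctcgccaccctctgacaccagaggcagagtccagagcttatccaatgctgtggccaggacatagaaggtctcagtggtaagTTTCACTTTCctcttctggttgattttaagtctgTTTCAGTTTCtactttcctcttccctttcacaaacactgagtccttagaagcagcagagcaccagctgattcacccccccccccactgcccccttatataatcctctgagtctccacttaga
Oas1a: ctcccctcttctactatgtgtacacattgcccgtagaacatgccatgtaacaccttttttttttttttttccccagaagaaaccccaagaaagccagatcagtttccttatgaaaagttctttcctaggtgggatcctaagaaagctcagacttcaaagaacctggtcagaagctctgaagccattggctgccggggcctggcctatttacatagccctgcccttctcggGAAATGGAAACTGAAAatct
Cxcl10: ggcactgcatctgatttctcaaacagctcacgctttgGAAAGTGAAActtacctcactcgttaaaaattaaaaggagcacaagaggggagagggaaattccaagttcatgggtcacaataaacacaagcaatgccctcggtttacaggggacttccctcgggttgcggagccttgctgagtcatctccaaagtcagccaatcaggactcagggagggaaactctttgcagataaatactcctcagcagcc

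The matches began 104 and 85 bases before the start of *Ifit1*, 156 and 122 before that of *Ifit3*, 20 and 14 before that of *Oas1a* and 213 before that of *Cxcl10*. A match was found in this window for 11 of the 20 listed interferon genes in the promoter table (55%), against 936 of all 27025 genes (3.46%) and 978 of all 32851 windows (2.98%). It describes the letters only, since binding was not measured. Of the 5 listed genes that rose with the block and are in the table, 3 had a match. Of those called within replicates 2 to 4, 10 of 18 had one, and of those not called, 1 of 2, with the match in *Oas3* and none in the windows of *Ifit2*.

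*Ifit1*, whose product binds foreign RNA, was at an RQ of 0.274, 0.241, 0.198 and 0.259% in WT replicates 1 to 4 and of 0.47, 2.28, 0.971 and 1.13% in Het replicates 1 to 4. The genotypes did not overlap, with replicate 1 the lowest Het library and replicate 2 the highest. The log2 fold change was 2.27 ± 0.31 (SE, 4 pairs, adjusted p = 0.0299) with the block and 2.65 ± 0.32 (adjusted p = 0.000605) within replicates 2 to 4, and the ratio of Het to WT was 1.71 in replicate 1 alone.

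*Cxcl10*, an interferon-induced chemokine, was at 0.137, 0.0694, 0.0847 and 0.0724% in WT and 0.157, 0.948, 0.898 and 0.643% in Het. Again no library overlapped, but Het replicate 1 exceeded WT replicate 1 by a ratio of only 1.14, while the ratio of means in replicates 2 to 4 was 11. Its change was the largest rise among the genes named by rule (2.99 ± 0.42, adjusted p = 0.0301 with the block).

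*Oasl2*, of the family of oligoadenylate synthetases, was at 0.146, 0.0986, 0.0888 and 0.138% in WT and 0.164, 1.36, 0.478 and 0.633% in Het (log2 fold change 2.47, adjusted p = 0.036 with the block). *Ifit3* (1.57, adjusted p = 0.0299), *Ifi44* (2.29, 0.0312), *Mx2* (2.31, 0.0321) and *Oas1a* (2.53, 0.036) rose likewise, and of these *Mx2* and *Oas1a* had means of only 23.9 and 20 counts. *Ifit3* shares reads with its near copy *Ifit3b*, so that their separate values are uncertain. *Phf11d*, an interferon-inducible gene, rose too (1.79, adjusted p = 0.0323). Like *Cxcl10*, it is not on the list, so the counts of listed genes include neither.

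Some members behaved otherwise. *Isg15*, a ubiquitin-like modifier, was not called with the block (1.59, adjusted p = 0.0583) and rose within replicates 2 to 4 (2.02, adjusted p = 0.00157), from 0.409, 0.408 and 0.431% to 2.59, 1.06 and 1.41%, while its ratio in replicate 1 was 1.04. *Irf7*, the factor that amplifies the response, showed the same (1.39, adjusted p = 0.00924 within replicates 2 to 4, ratio 0.883 in replicate 1). *Ifit2* was not called in either fit, at 2.48, 1.97, 1.92 and 1.81% in WT and 2.5, 1.95, 1.44 and 1.9% in Het. *Rsad2*, *Mx1* and *Oas3* did not pass the filter over all 8 libraries. *Rsad2*, an antiviral enzyme, was at 0.0171, 0.00365, 0.00404 and 0.00345% in WT and 0.0142, 0.28, 0.32 and 0.187% in Het, so that replicates 2 to 4 of Het stood above all other libraries, and it rose within replicates 2 to 4 (5.98, 4.79e-05), as did *Mx1*, while *Oas3* was not called there. *Isg15*, *Irf7*, *Ifit2*, *Rsad2* and *Mx1* were picked after their values were seen.

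**Figure D1:**
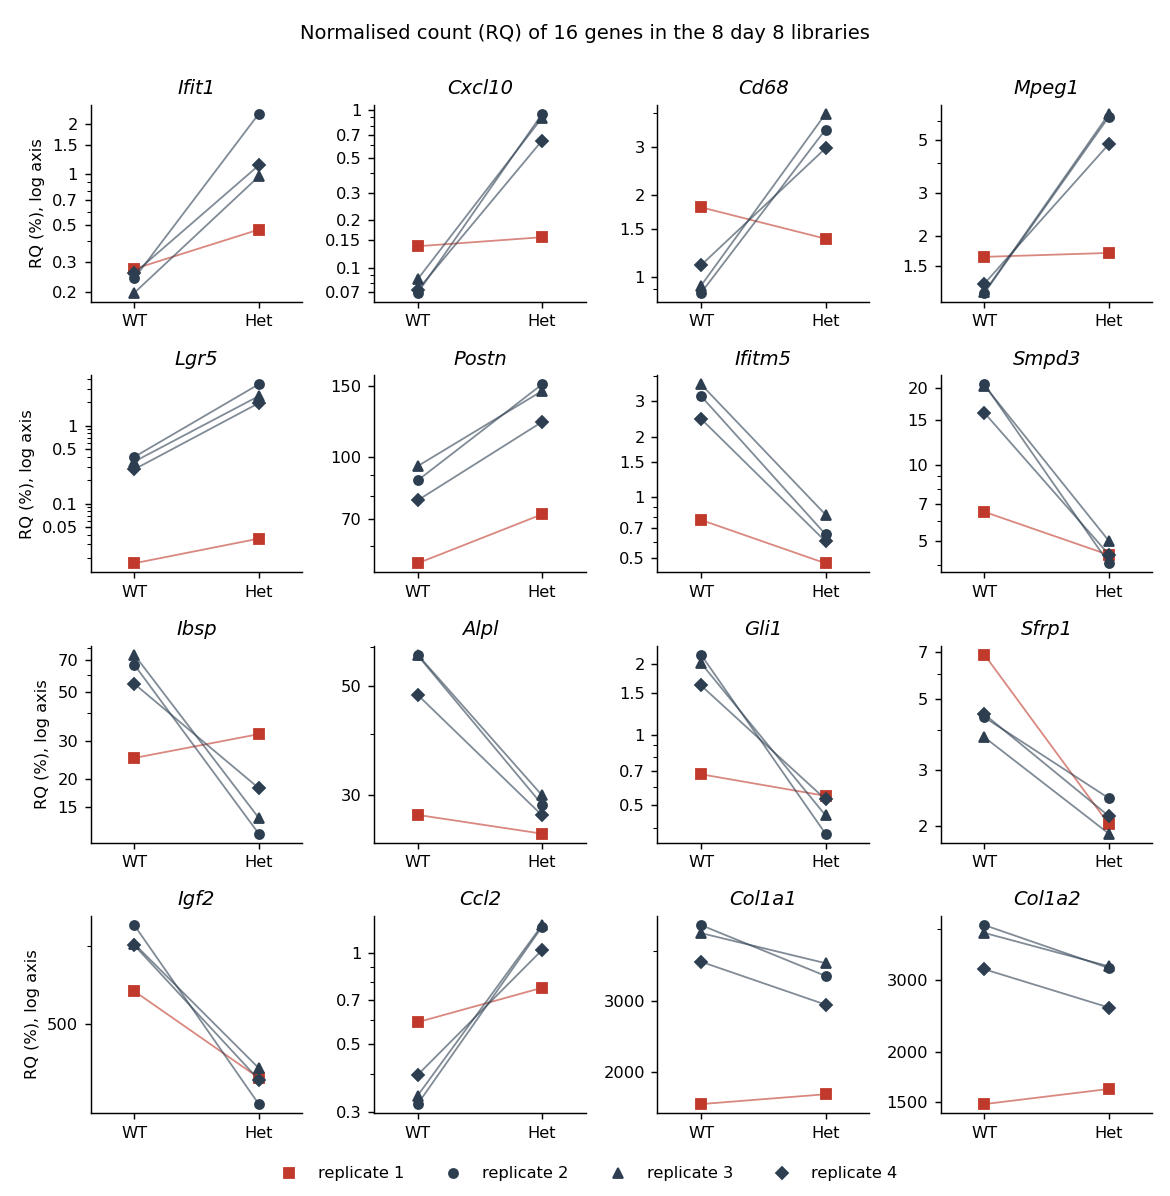
RQ of 16 genes in percent of the housekeeping mean on log axes, WT on the left and Het on the right of each panel, 1 point for each library, with lines joining libraries of the same replicate number and replicate 1 in red. Replicate 1 lies apart from the others in most panels. *Ifit1*, *Lgr5* and *Postn* are higher and *Ifitm5*, *Smpd3*, *Sfrp1* and *Igf2* lower in Het in all 4 pairs, whereas the lines of *Cd68* and *Ibsp* run the other way in replicate 1 than in the other pairs.

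Macrophage markers moved in the same libraries. Of 20 macrophage and osteoclast markers, 18 were tested, 4 rose with the block (0.582% of all genes) and 16 rose within replicates 2 to 4 (4.55% of all genes), with a median log2 fold change of 1.53, 1.98 and, in replicate 1, -0.26. Their summed RQ was 86.7, 79.5, 79.9 and 77% in WT replicates 1 to 4 and 78.6, 156, 165 and 128% in Het, so Het replicate 1 lay within the WT range and the other Het libraries well above it. The largest part of the sum in WT replicates 2 to 4 was *Ctsk*, a gene not restricted to these cells, whose values are given below. The part of these markers in the interferon values, which were high in the same 3 libraries, was not tested.

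*Cd68*, a lysosomal protein of macrophages, was at 1.8, 0.873, 0.928 and 1.1% in WT and 1.38, 3.48, 3.97 and 2.96% in Het. Replicate 1 was lower in Het and the other 3 replicates higher, and the difference between these effects was called (log2 -2.22, adjusted p = 0.0347). The same test was passed by *Tyrobp* (-2.63, 0.0424), *Lyz2* (-2.04, 0.0347), the receptor gene *Csf1r* (-1.67, 0.0347) and *Mpeg1* (-2.22, 0.0347), which encodes a pore-forming protein of macrophages. In all, 8 of the 18 markers had a lower Het effect in replicate 1 than in replicates 2 to 4 (0.132% of all genes were called in this direction) and none a higher one.

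*Cx3cr1*, a chemokine receptor, was at 0.223, 0.457, 0.339 and 0.321% in WT and 0.235, 2.07, 1.93 and 1.4% in Het and rose with the block (2.02 ± 0.28, adjusted p = 0.03), as did *Ptprc*, the pan-leukocyte antigen CD45 (1.75, 0.0321), *Fcer1g* (1.79, 0.036) and *Aif1* (2.94, 0.0312, mean of 21 counts). Other leukocyte genes among the largest rises were *Slamf9* (2.03, 0.0174), *Pld4* (1.82, 0.0312) and *Arhgap30* (1.80, 0.0299). The ratios of Het to WT for these 3 genes were 1.45, 1.09 and 1.4 in replicate 1 and 4.41, 4.25 and 4.17 in replicates 2 to 4. *Ctsk*, the collagen-degrading protease of osteoclasts that fibroblastic cells also make, was at 29.8, 47.6, 50.1 and 41.2% and 29.9, 45.2, 42.1 and 39% and was not called in either fit. The marker sum above includes it and so understates how far the other markers moved in replicates 2 to 4. Without *Ctsk*, the sum of WT replicate 1 would stand above those of the other WT libraries. *Dcstamp* and *Ocstamp*, which osteoclast precursors need to fuse, had means of 1.12 and 6.0 counts.

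**Figure D2:**
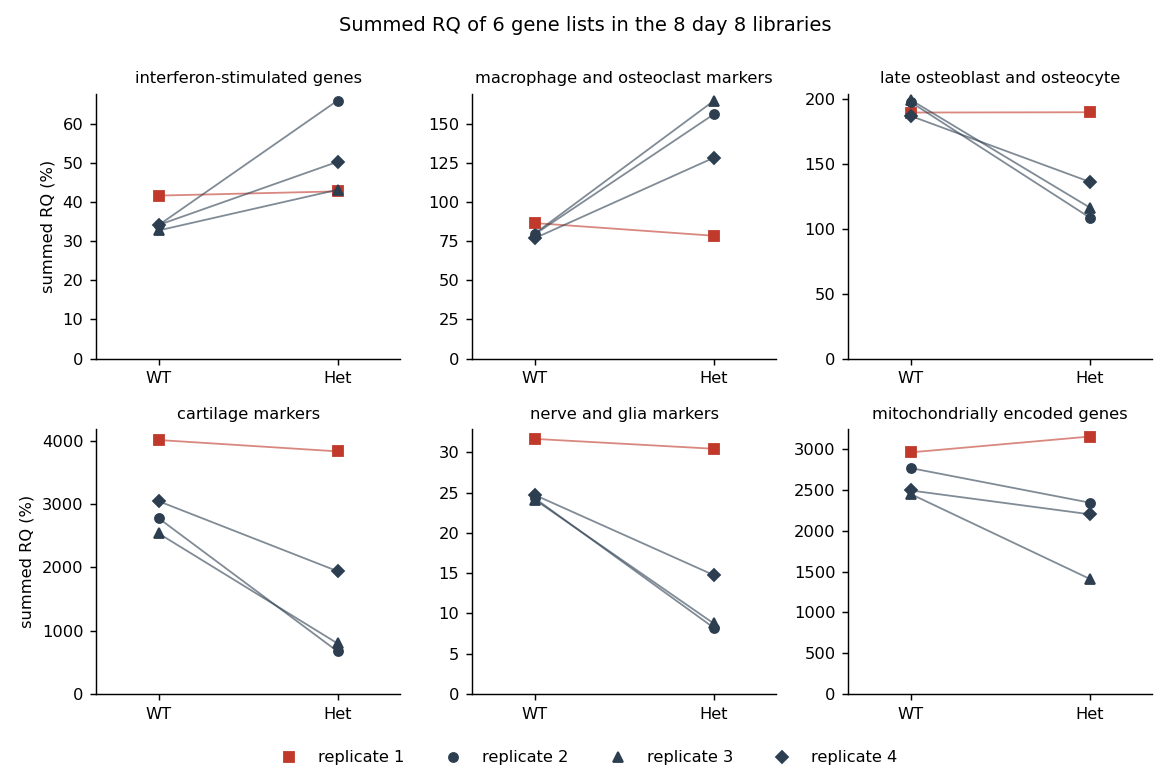
Summed RQ of 6 gene lists in percent of the housekeeping mean, WT on the left and Het on the right, 1 point for each library and replicate 1 in red. The macrophage sum, with *Ctsk* included, is 128 to 165% in Het replicates 2 to 4 and 78.6% in Het replicate 1. The sums of cartilage, nerve and late OB genes are lower in Het replicates 2 to 4 and near the WT value in replicate 1.

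*Lgr5* and *Postn* rose. *Lgr5*, a receptor for R-spondins that marks stem cells in several tissues, was at 0.0171, 0.398, 0.347 and 0.276% in WT and 0.0356, 3.41, 2.41 and 1.96% in Het. Both replicate 1 libraries were far below the rest, and the replicate 1 pair rested on 2 and 5 counts (log2 fold change 2.89 ± 0.14, adjusted p = 0.000492 with the block). *Postn*, a matricellular protein of the periosteum, was at 54.2, 87.3, 94.7 and 77.8% and 71.8, 152, 146 and 122% (0.62 ± 0.07, adjusted p = 0.0186), with Het replicate 1 within the WT range and the other Het libraries above it.

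Of 20 genes of the OB lineage and early matrix, 3 rose and 2 fell with the block (0.582% and 0.982% of all genes). The median was -0.06 there and 0.01 with the block and TMM. Beside *Postn*, *Thbs2*, a matricellular thrombospondin, rose (0.35, adjusted p = 0.0331), and so did the homeobox gene *Dlx6* (0.64, 0.0411), which has an overlapping antisense transcript and whose reads may not all be its own. *Dlx3*, another homeobox gene, of bone and skin, fell (-1.54, 0.03). *Alpl*, the alkaline phosphatase of OBs, was at 27.4, 57.8, 57.9 and 48% in WT and 25.1, 28.7, 30 and 27.3% in Het and fell (-0.73 ± 0.13, adjusted p = 0.0444). The Het libraries were all near the WT library of replicate 1, which was itself the lowest of WT, and the ratio was 0.916 in replicate 1 and 0.526 in replicates 2 to 4. *Sp7*, the factor that commits cells to the OB lineage, was just short of the threshold with the block (-0.44, 0.0503) and fell within replicates 2 to 4 (-0.56, 0.00197). *Runx2* was not called in either fit (-0.19, 0.143 with the block), nor were *Sparc* (-0.06, 0.501) and *Spp1*, osteopontin (0.08, 0.345).

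Genes of late OBs and of osteocytes were lower. Of 24 listed, 18 were tested, 6 fell with the block (0.982% of all genes) and none rose, while within replicates 2 to 4, 10 fell (14.2% of all genes) and 2 rose. With TMM, 5 fell with the block, without *Dmp1*, and 9 within replicates 2 to 4. The median log2 fold change was -0.68 with the block, -0.85 within replicates 2 to 4 and -0.04 in replicate 1. Their summed RQ was 189, 197, 199 and 187% in WT and 189.7, 109, 116 and 136% in Het.

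*Ifitm5*, a membrane protein restricted to OBs, was at an RQ of 0.772, 3.19, 3.65 and 2.46% for WT and 0.47, 0.655, 0.821 and 0.604% in Het. Het was lower in each pair, with WT replicate 1 within the Het range (-1.93 ± 0.21, adjusted p = 0.0175 with the block). *Smpd3*, a sphingomyelinase needed for mineralization, was at 6.5, 20.8, 20.5 and 16% and 4.39, 4.07, 4.99 and 4.41%, and no library overlapped (-1.75 ± 0.25, 0.03), although the effect was weaker in replicate 1 (difference 1.52, 0.0427). *Sgms2*, a sphingomyelin synthase outside this list, was at 5.54, 21.7, 20.9 and 15.8% and 4.98, 4.79, 4.81 and 4.95% (-1.59 ± 0.29, 0.0459). The 4 Het libraries of *Sgms2* were almost level while the WT libraries of replicates 2 to 4 were several times higher, and the ratio in replicate 1 was 0.899. *Phospho1*, the phosphatase that supplies phosphate inside matrix vesicles (-1.11, 0.0316), and *Phex*, an endopeptidase of phosphate balance (-1.49, 0.0259), also fell. *Dkk1*, a listed gene that fell too, held 1 and 2 counts in replicate 1 and is counted again in the Wnt pathway.

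*Ibsp*, bone sialoprotein, showed how far the replicates differed. It was at 25, 66.8, 74.2 and 54.6% in WT and 32.1, 11.3, 13.3 and 18.2% in Het. Het was higher than WT in replicate 1 and lower in the other 3, so that the block did not call it (-1.62 ± 0.45, adjusted p = 0.0915), replicates 2 to 4 did (-2.19 ± 0.17, 5.65e-05), and the difference between the effects was called (2.55, 0.0347). *Dmp1*, an acidic matrix protein of osteocytes, was at 0.472, 2.32, 3.11 and 1.98% and 0.498, 0.307, 0.324 and 0.404%, and fell with the block (-2.32, 0.046, and 0.0568 with TMM) although its effect in replicate 1 differed from the rest (2.91, 0.0429). The osteocalcin genes *Bglap* and *Bglap2*, near copies whose reads may be shared, fell only within replicates 2 to 4 (-1.61, 0.0127 and -1.44, 0.00749). *Ibsp*, *Bglap* and *Bglap2* were picked after their values were seen.

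**Figure D3:**
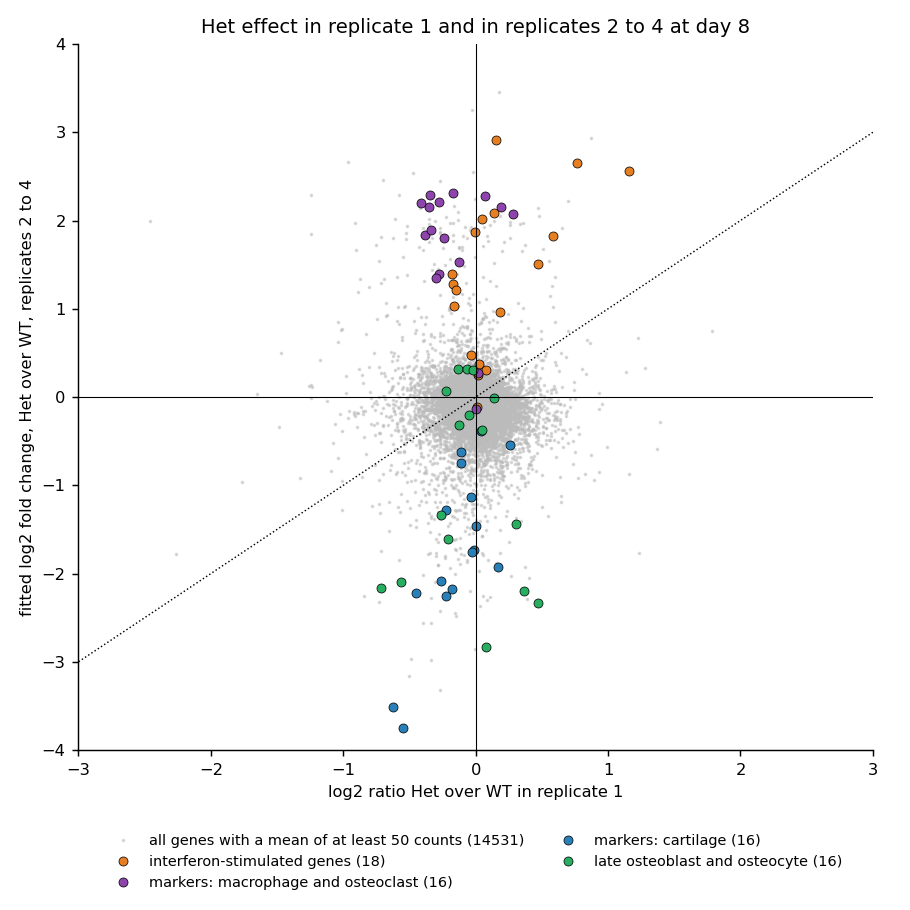
Log2 ratio of Het to WT in replicate 1 (x axis) against the fitted log2 fold change in replicates 2 to 4 (y axis) for the 14531 genes whose mean reached 50 counts (grey), with 4 lists in colour and a dotted line where both are equal. Most macrophage markers lie high and cartilage markers low on the y axis. Their ratios in replicate 1 are mostly nearer to 0, and those of many macrophage markers lie to its left. Some interferon genes lie to the right of 0.

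In the Wnt pathway, whose ligands drive bone formation through β-catenin and which secreted antagonists restrain, 31 of 33 genes were tested, 7 fell (0.982% of all genes) and none rose with the block, and 16 fell (14.2% of all genes) and 1 rose within replicates 2 to 4. With TMM, 6 fell with the block, without *Axin2*, and 13 within replicates 2 to 4. *Sfrp1*, a secreted Wnt antagonist, was at 6.89, 4.38, 3.8 and 4.48% in WT and 2.03, 2.45, 1.9 and 2.15% in Het, with no overlap and the greatest loss in replicate 1 (-1.15 ± 0.13, adjusted p = 0.0207). *Wif1*, another secreted inhibitor, fell (-0.84, 0.03), as did *Nkd2*, a feedback inhibitor (-0.56, 0.0316). *Dkk1*, the antagonist of LRP co-receptors, was at 0.00857, 0.731, 0.787 and 0.469% and 0.0142, 0.145, 0.147 and 0.1% (-2.28 ± 0.20, 0.0125), with next to no counts in either replicate 1 library. *Axin2*, a target and inhibitor of the β-catenin pathway, was at 2.27, 2.12, 2.09 and 1.98% and 1.68, 1.61, 1.73 and 1.47% and fell without overlap (-0.38 ± 0.07, 0.0475), but was not called with the block and TMM (adjusted p = 0.0821). The ligand *Wnt7b* (-0.76, 0.03) and the transcription factor *Tcf7* (-1.03, 0.0391) completed the 7. *Frzb*, an antagonist related to *Sfrp1*, fell within replicates 2 to 4 only (-2.29, 7.13e-05) and differed in replicate 1 (2.68, 0.0429).

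*Hhip*, *Gli1* and *Ihh* belong to hedgehog signalling, for which no list was counted. *Hhip*, a hedgehog-binding inhibitor and target of the pathway, was at 0.197, 2, 1.69 and 1.21% in WT and 0.149, 0.317, 0.28 and 0.236% in Het (-2.31 ± 0.26, adjusted p = 0.0207 with the block). *Gli1*, the transcription factor and target of the pathway, was at 0.677, 2.19, 2.02 and 1.62% and 0.548, 0.378, 0.453 and 0.53%, with no overlap (-1.76 ± 0.29, 0.0348). *Ihh*, the ligand that chondrocytes secrete, fell as well (-1.76, 0.03), although its few counts in replicate 1 gave a ratio of 1.14.

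In the BMP and TGF-β pathway 2 of 36 genes fell with the block (0.982% of all genes), the BMP antagonist *Nog* (-0.77, adjusted p = 0.0334, no overlap) and *Bmp3*, a BMP that opposes bone formation (-1.41, 0.0299). *Bmp8a*, outside this list, was at 0.189, 0.387, 0.456 and 0.317% and 0.114, 0.105, 0.125 and 0.116% and fell (-1.58, 0.0295). In the IGF axis 3 of 15 fell and 1 rose (0.982% and 0.582% of all genes). *Igf2*, the fetal growth factor, was at 540.4, 631, 604 and 602% in WT and 441, 415, 451 and 439% in Het. The groups were tight and did not overlap, and the fall was moderate (-0.44 ± 0.06, adjusted p = 0.03), with a ratio of 0.817 in replicate 1 and 0.711 in the others. An overlapping transcript is annotated at *Igf2*, and some of its reads may belong there. Among the binding proteins that hold IGFs in the matrix, *Igfbp3* (-0.62, 0.0174) and *Igfbp4* (-0.40, 0.0321) fell and *Igfbp6* rose (0.90, 0.0475), a call that was lost with the block and TMM (1.00, 0.0592). *Igfbp5* was at 53.2, 136, 128 and 109.9% and 52.7, 56.2, 50.7 and 54.1%, fell within replicates 2 to 4 (-1.22, 4.79e-05) and differed in replicate 1 (1.20, 0.0424).

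Among proteases and chemokines, the gelatinase *Mmp9* (-1.02, adjusted p = 0.0384) and *Adamts9*, a proteoglycan-cleaving protease (-1.18, 0.0343), fell, and the call of *Mmp9* was lost with the block and TMM (-0.92, 0.0517). *Ccl2*, which draws monocytes, was at 0.592, 0.318, 0.339 and 0.397% in WT and 0.768, 1.22, 1.24 and 1.02% in Het and rose without overlap (1.44 ± 0.23, 0.0338). *Cxcl5*, which draws neutrophils, fell, from 0.866, 0.19, 0.226 and 0.355% to 0.178, 0.081, 0.0662 and 0.0775% (-1.90 ± 0.21, 0.0175). In both genotypes, replicate 1 held the most *Cxcl5*. Other large falls by the naming rule were those of *Galnt6*, a glycosyltransferase of mucin-type O-glycosylation (-2.12, 0.0174), whose gene overlaps an antisense transcript, of *Chad*, a cartilage matrix protein (-1.82, 0.04), of *Mia* (-1.73, 0.0316), which chondrocytes secrete, and of *Car3*, a carbonic anhydrase (-1.79, 0.0498).

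Cartilage markers were lower in Het replicates 2 to 4 and near the WT level in Het replicate 1. Of 16, 1 fell with the block, *Ihh*, and all 16 fell within replicates 2 to 4 (14 with TMM, and 14.2% of all genes fell there), where the median log2 fold change was -1.74, while it was -0.11 in replicate 1. Their summed RQ was 4016, 2779, 2539 and 3048% in WT replicates 1 to 4 and 3836, 672, 798 and 1941% in Het. *Acan*, the large proteoglycan of cartilage, was at 199, 181, 165 and 186% in WT and 198, 28.1, 36.2 and 96.4% in Het, so that replicate 1 was equal and replicates 2 and 3 of Het held the least (-1.73 ± 0.37, adjusted p = 0.0119 within replicates 2 to 4). *Col2a1*, its fibrillar collagen, was at 3025, 1840.0, 1673 and 2150.2% and 2945, 490.1, 589.9 and 1503% (-1.13, 0.0461 in the same fit). *Matn1*, a filament-forming matrix protein, was at 17.4, 29.1, 28.4 and 23.5% and 11.9, 0.756, 1.09 and 4.13%, with no overlap (-3.75, 0.000926 in that fit). The effect of replicate 1 was not called different for any of the 16. That difference was called for only 0.203% of all genes, so the count does not show that the effects were equal. *S100b*, which cartilage and glia share, fell with them (-1.48, 0.00365 within replicates 2 to 4). *Acan*, *Col2a1*, *Matn1* and *S100b* were picked after their values were seen.

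*Col1a1* and *Col1a2* were not called in any of these fits. *Col1a2*, the gene that carries the mutation (mm10 chr6:4504814-4541544, plus strand), was at 1486, 4092, 3915 and 3187% in WT replicates 1 to 4 and 1618, 3208, 3239.7 and 2566% in Het. *Col1a1* was at 1666, 4629, 4422 and 3755% and 1762, 3463, 3724 and 2940.0%. Both were least abundant in replicate 1, where Het was slightly above WT, and were lower in Het in the other 3 replicates, with ratios of 0.805 and 0.791. The log2 fold changes were -0.20 ± 0.08 (adjusted p = 0.174) and -0.23 ± 0.08 (0.139) with the block and -0.31 ± 0.12 (0.0889) and -0.34 ± 0.11 (0.0532) within replicates 2 to 4. Of 11 fibrillar collagen chains, 6 fell within replicates 2 to 4 (14.2% of all genes) and 4 with TMM (1156 of 18342 genes). The 6 were *Col3a1* (-0.34, 0.0367), the cartilage chains *Col2a1* and *Col11a1* (-1.10, 0.000574), and *Col11a2*, *Col24a1* and *Col27a1*. *Col5a1* was not called (-0.04, 0.707 within replicates 2 to 4).

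Among 20 genes that modify and fold procollagen, none was called with the block and 7 fell within replicates 2 to 4 (6 with TMM), where 14.2% of all genes fell (1156 of 18342 with TMM). They were *Plod2*, a lysyl hydroxylase of the telopeptides (-0.87, 0.00822), the prolyl 4-hydroxylase subunits *P4ha1* (-0.52, 0.00852) and *P4ha2*, the prolyl 3-hydroxylases *P3h1* and *P3h2* (-1.77, 0.00794), *Fkbp14* and the galactosyltransferase *Colgalt2* (-2.85, 0.000839). The procollagen chaperone *Serpinh1*, HSP47, was at 549, 654, 618 and 583% and 563, 547, 584 and 536% and was not called (-0.11, adjusted p = 0.302 with the block). Of 21 genes of export, cleavage and crosslinking, *Loxl4*, a lysyl oxidase, was the only one called with the block (-0.47, 0.0471). Around *Col1a2*, 49 of 151 genes within 10 Mb were tested and 2 were called with the block (4.08%, against 1.56% of all genes), *Dlx6* up and *Gm43921* down. Within replicates 2 to 4, 4 of the 49 rose and 11 fell (30.6%, against 18.7% of all genes), among them the imprinted gene *Peg10* (-1.18, 0.0205). *Gm43921* lies within *Col1a2* on the same strand, so its reads may be those of *Col1a2*.

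Genes of cell stress were set beside the later days, since the series follows the cultures over 3 sampling days. Of 40 targets of the integrated stress response (ISR), which ATF4 and CHOP switch on, only *Vldlr*, a lipoprotein receptor, was called at day 8 with the block, and it fell (-0.72, adjusted p = 0.0334). At days 14 and 21, in a fit of another form, without the block and over all 24 libraries, 30 rose and none fell (15.2% of all genes were called there, 7.15% higher and 8.01% lower). Within replicates 2 to 4 at day 8, 5 rose and 3 fell, against 4.55% and 14.2% of all genes. With TMM, 12 rose and 1 fell there, against 1325 and 1156 of 18342 genes. The median log2 fold change of the list was 0.03 at day 8 and 0.64 at the later days. The difference between the Het effect at day 8 and the mean effect at days 14 and 21 was tested in all 24 libraries and was called for 35 of 20434 genes (0.171%), 1 with the higher effect at day 8 (0.00489%) and 34 with the lower (0.166%), with 4 of the 40 ISR targets among them. With the replicate block 101 genes (0.494%) were called, without replicate 1 928, and without replicate 2, 3 or 4 only 3, 1 and 0.

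The RQ of *Trib3*, a pseudokinase induced by CHOP, was 0.755, 0.413, 0.484 and 0.493% in day 8 WT libraries and 0.704, 0.725, 1 and 0.717% in Het ones. WT replicate 1 lay within the Het range and WT replicates 2 to 4 below it, and *Trib3* rose within replicates 2 to 4 (0.81, 0.00776). In the pooled fit the log2 fold change was 0.57 at day 8 and 2.78 later (difference -2.18 ± 0.27, adjusted p = 0.000495). *Ddit3*, which encodes CHOP, was at 2.66, 2.23, 2.13 and 2.1% and 2.98, 1.89, 2.17 and 2.1% at day 8, a log2 fold change of 0.00 against 1.20 later (difference -1.20 ± 0.18, 0.00478). *Ppp1r15a*, the GADD34 subunit that removes the phosphate of eIF2α, differed too (-0.85, 0.0473), and so did *Soat2*, a sterol acyltransferase (-2.15, 0.0205), with a mean of 10.1 counts at day 8. *Asns*, asparagine synthetase, was called later (0.67, 0.00495) and its difference was not (-0.46, 0.972). At day 8 it rose within replicates 2 to 4 (0.29, 0.0464).

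The mitochondrial chaperone *Hspa9*, mt-HSP70, was at 50.2, 40, 40.5 and 41.3% in day 8 WT libraries and 52.1, 38.8, 41.8 and 43.3% in Het ones, so that the groups overlapped, and its effect there was below that of the later days (0.03 against 0.75, difference -0.72 ± 0.14, adjusted p = 0.0338). *Atf5*, a stress factor upstream of mitochondrial chaperones, was at 21, 10.6, 9.5 and 13.6% and 19.1, 12.2, 15.1 and 16.6% and its difference was not called (-0.48, 0.88). Among 28 genes of the ER unfolded protein response none was called with the block. Within replicates 2 to 4, 10 fell (14.2% of all genes), and 2 with TMM (1156 of 18342 genes). For 1 of the 28, the ER stress sensor *Ern1*, the Het effect was lower at day 8 than later (-0.69, 0.0447). *Hspa5*, the ER chaperone BiP, was at 172, 177, 174 and 169% and 179, 146, 147 and 152% (-0.15, 0.196 with the block). *Cyb5r1*, of the family of cytochrome b5 reductases, also differed (-1.08, 0.0161), and at day 8 it rose within replicates 2 to 4.

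**Figure D4:**
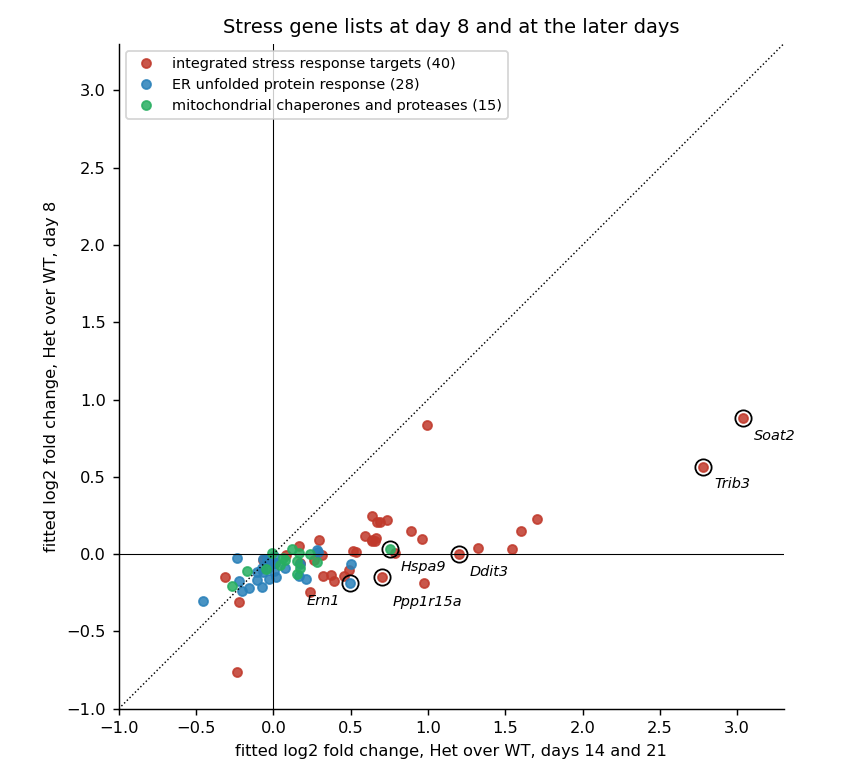
Fitted log2 fold change of Het over WT at days 14 and 21 (x axis) and at day 8 (y axis) for 3 lists of stress genes, with a dotted line where both are equal and rings around the genes whose effects differ between day 8 and the later days. Most ISR targets lie to the right of 0 and near 0 on the y axis, and *Trib3* and *Soat2* lie farthest to the right.

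Among the other genes whose Het effect at day 8 was below the later one, some were not called at day 8 with the block and were higher in Het later. Among them were *Avil*, an actin-binding protein (-0.32 with the block, 3.24 later, difference -3.64, adjusted p = 0.00722), *Cdsn*, a cell adhesion protein of skin (-0.24, 1.98, -2.24, 0.000495), which fell within replicates 2 to 4 (-0.32, 0.0239), and the cadherin *Cdh6* (-0.33, 1.43, -1.74, 0.0101). Others fell at day 8 with the block and were not called later, among them *Ifitm5* (-1.93 with the block, -0.40 later, difference -1.58, 0.0473), *Smpd3* (-1.75, -0.33, -1.51, 0.0351), *Bmp8a* (-1.41, 0.0424), *Galnt6* (-2.17, 0.0287) and the long noncoding RNA *Miat* (-1.70, 0.0473). Interferon and macrophage genes were not called for this difference, none of 23 and none of 18. The higher effect at day 8 was called for only 0.00489% of all genes, so these counts do not show that the effects were equal. At the later days, 7 and 15 of them were higher in Het, against 7.15% of all genes. The median log2 fold changes of the lists were 1.39 and 1.53 at day 8 with the block. They were 0.75 and 1.02 at the later days, in a fit of another form.

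Cell cycle genes were not called with the block (0 of 30). Within replicates 2 to 4, 12 of them rose (4.55% of all genes), and 25 with TMM (1325 of 18342 genes). Among the 12 was *Mcm6* (0.25, adjusted p = 0.0132), a subunit of the replicative helicase. The median ratio of the list in replicate 1, however, was -0.07 on the log2 scale. The 13 mitochondrially encoded genes were not called in either fit. Their summed RQ was 2962, 2769, 2451 and 2494% in WT and 3156, 2345, 1410.2 and 2202% in Het, with Het replicate 3 the lowest library.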

How the data were processed

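PolyA RNA of 8 day 8 cultures (4 WT, 4 Het) was analysed, with the 16 libraries of days 14 and 21 for 1 test. The values deposited by the authors are raw counts of reads per gene, 1 file for each library. The submitters' processing notes name cutadapt 2.5, STAR 2.73a, Subread, featureCounts 1.6.4 and mm10. How strand and reads with several matches were treated is not given in the sources used here, and the libraries carried no molecular identifiers. Groups came from the labels. Counts were scaled by the geometric mean of *Actg1*, *Actb*, *Mrfap1* and *Sdha*, as in the study's methods, genes of low count were removed with filterByExpr, and genotypes were compared by edgeR 4.0.16 (glmQLFit, glmQLFTest, R 4.3.3, limma 3.58.1) with Benjamini-Hochberg adjustment over all tested genes, called at an adjusted p under 0.05. A fit with the replicate number as a block, a fit of replicates 2 to 4, the interaction of genotype with replicate 1 and the interaction with day were run beside it. Errors of log2 fold changes are SE. The block takes libraries of the same number as pairs. Deviations from the group means of same-numbered WT and Het libraries correlated over genes with r of 0.39 to 0.697. Differently numbered libraries among replicates 2 to 4 correlated with r of 0.169 to 0.472. WT replicate 3 correlated more with Het replicate 2 (0.472) than with Het replicate 3 (0.444). The values set replicate 1 apart but do not show that replicates 2 and 3 pair by number. Replicates of a group differed by more than counting noise. The total per library, 21193927 to 50829572 counts, limits the precision of genes of low count.

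Alternatives were TMM, DESeq2 1.42.0 size factors and its Wald test, total counts, other filters, a minimum change of 20% and leaving out libraries. Some alternatives, among them all those of the blocked fit and of replicates 2 to 4, were chosen after the data were seen. The gene lists and tests were chosen with earlier results of these data known. For each fit, the genes named were up to 12 with the largest rise and 12 with the largest fall among called genes whose mean reached 50 counts and that had, except for the difference between days, 1 sign in replicate 1 and the others. To these were added *Col1a1*, *Col1a2*, the scaling genes, the markers of the study, up to 4 called members of each list (2 where none was called) and called genes within 10 Mb of *Col1a2*. Other genes named are stated to have been picked after their values were seen, or belong to a list whose called members are all given. Called means here called with the block or, where no member was, within replicates 2 to 4. Sums over marker lists are given as values without the permutation test first planned for them. The scripts were tested on simulated data.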

Additional observations from a re-analysis of the deposited data

Results flagged for a closer look

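In groups of 4 libraries, 1 library lay apart from the other 3 when its gap to the nearest, as a share of the whole range of the group exceeded Dixon's 95% critical value. Among genes, 18 of 360 groups (5%) had such a library, which is about the 1 in 20 that chance gives, but 15 of the 18 were replicate 1, 11 in WT and 4 in Het. Replicate 1 was the high library of WT for *Dnaja3* (0.883), *Mcm6* (0.837), *Tnnt3* (0.845), *Hspa9* (0.871), *Sdha* (0.907), *Spp1* (0.832), *Acp5* (0.881), *Col10a1* (0.846), *Ppp1r15a* (0.872) and *S100b* (0.864), and the low one for *Atf6* (0.899). In Het, replicate 1 was high for *Cxcl5* (0.868), *Chad* (0.917), *Hspa5* (0.842) and *Hsp90b1* (0.858). Other replicates stood apart for *Gm40645* (WT replicate 4 high, 0.831), *Trib3* (Het replicate 3 high, 0.929) and *Ern1* (WT replicate 3 low, 0.938). WT replicate 1 was also high in the summed RQ of interferon-stimulated genes (0.843) and of nerve and glia markers (0.924).

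The Het effect at day 8 differed from the mean effect at days 14 and 21 by the edgeR interaction test for 19 of the 180 named genes, all lower at day 8. Over all genes the share was 0.171%, nearly all of it lower at day 8. Of the 19, 12 meet the naming rule as the largest falls of this same test. The count and its direction were therefore partly fixed in advance. The log2 differences were -3.64 for *Avil*, -2.24 for *Cdsn*, -2.18 for *Trib3*, -2.17 for *Galnt6*, -2.15 for *Soat2*, -1.74 for *Cdh6*, -1.70 for *Miat*, -1.58 for *Ifitm5*, -1.51 for *Smpd3*, -1.46 for *Mamdc2*, -1.41 for *Bmp8a*, -1.40 for *Gm14137*, -1.34 for *Fibin*, -1.20 for *Ddit3*, -1.16 for *Ppp1r9a*, -1.08 for *Cyb5r1*, -0.85 for *Ppp1r15a*, -0.72 for *Hspa9* and -0.69 for *Ern1*.

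The Het effect in replicate 1 minus that in replicates 2 to 4 was called for 11 of the named genes. Over all genes the share was 0.203%, and some of the 11, *Ibsp* among them, were picked after their values were seen. The difference was below 0 for *Tyrobp* (-2.63), *Cd68* (-2.22), *Mpeg1* (-2.22), *Lyz2* (-2.04) and *Csf1r* (-1.67), and above 0 for *Dmp1* (2.91), *Frzb* (2.68), *Ibsp* (2.55), *Sgms2* (1.85), *Smpd3* (1.52) and *Igfbp5* (1.20).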

How the results depend on the processing

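The pooled comparison called 0 genes, and 431 with DESeq2, 285 with the replicate block, 221 with the block and TMM, 704 with replicate 1 against the rest as a term and 129 with all 24 libraries in the fit. Leaving out 1 replicate number gave 0 to 3432 calls (3432 without replicate 1), and leaving out 1 library 0 to 1610 (244 without WT replicate 1, 1610 without Het replicate 1). The 285 calls of the blocked fit became 1944 with no filter on low counts, 133 with a mean of at least 50 counts, 913 with DESeq2, 16 with a minimum change of 20%, 704 with replicate 1 as a term (556 with TMM), 0 with no block and 0 to 5778 without 1 replicate number. Of 65 named genes called with the block, 55 were called with TMM and 65 with DESeq2, and all kept their sign. Within replicates 2 to 4, the 3432 calls became 5778 with the block, 1034 with a minimum change of 20% and 558 to 4753 without 1 replicate. The 37 genes that differed between replicate 1 and the others became 13 with TMM. The 35 that differed from later days became 91 with DESeq2, 101 with the replicate block (107 with TMM), 169 with replicate 1 as a term, 15 with a minimum change of 20% and 0 to 928 without 1 replicate number. The causes were not tested. In replicate 1 alone, 115 of 180 named genes had the sign of the pooled fit. That count was partly fixed in advance, since the pooled fit includes replicate 1. Part of the naming rule also required 1 sign in replicate 1 and the others. Genes of few counts, such as *Mx2*, *Oas1a*, *Aif1* and *Soat2*, are limited by depth.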
